A study of Homo sapiens with 12 samples.

Results

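CDK19 knockdown was compared with control cells by the H3K27ac peaks of 6 libraries, out of 12 samples in the series, of which 9 have a peak list. H3K27ac, acetylation of lysine 27 on histone H3, was mapped by native (unfixed) ChIP-seq in MDA-MB-231, a mesenchymal-like triple-negative breast cancer cell line. The 6 libraries are the 3 titled CDK19KD, from cells infected with lentivirus that carried a CDK19 shRNA, and the 3 titled Control, from cells infected with the EV-control lentivirus. All cells were grown for 96 h after infection, and each ChIP used 250000 to 500000 cells. A further 3 libraries from cells with a CDK8 shRNA (CDK8KD) entered the estimate of the spread for windows and are given beside some loci. The labels name no shRNA sequence or clone and no measure of CDK19, so the knockdown itself was not checked. Nothing in the labels says that same-group libraries came from separate cultures, so p-values measure only the spread between these libraries.

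CDK19 and its close relative CDK8 are cyclin C-dependent kinases. Each can occupy the kinase module of Mediator, the complex that links transcription factors at enhancers with RNA polymerase II at promoters. H3K27ac is written mainly by the acetyltransferases p300 and CBP and marks active promoters and enhancers. Broad acetylated stretches are known to lie over clustered enhancers and over highly transcribed genes of a cell type. Each library has 1 list of broad peaks. A broad peak is a stretch in which enriched segments lie close enough for the caller to join them, so its width depends on the mark and on how well a library fills the gaps. All positions are in hg19 and are counted from 1. The genes at these positions, and their sequences, were not analysed here.

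Chromosomes 1 to 22 and X carried 448324 of the 453385 peaks in the 6 lists. Control lists had 65579, 87530 and 84856 peaks (replicates 1, 2 and 3) and CDK19KD lists 65898, 74654 and 69807. Control replicate 1 was near the CDK19KD lists in peak number and covered length, and the Control lists were not alike among themselves. Its Jaccard index (length under peaks of both lists, divided by length under peaks of at least 1) was 0.726 with CDK19KD replicate 1, 0.643 with CDK19KD replicate 2 and 0.641 with CDK19KD replicate 3, against 0.627 and 0.549 with Control replicates 2 and 3. Control replicates 2 and 3 had 0.561 with each other, so Control replicate 3 was the least like the other Control lists. No pair of lists shared more than 4 identical peaks. The read depth is unknown, and its part in the differences was not tested.

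Knockdown lists covered less of the genome than 2 of the 3 Control lists, and nearly the same amount as the third. Covered length was 263, 313 and 316 Mb in Control replicates 1, 2 and 3 and 271, 262 and 269 Mb in CDK19KD replicates 1, 2 and 3. The 3 knockdown values thus lay within the Control range or just under it. The log2 ratio of the means was −0.15 (exact permutation p = 0.3, adjusted over 14 measures 0.583, smallest possible p 0.1). By replicate number the log2 ratios were 0.045, −0.26 and −0.23, so replicate 1 differed in direction from the other pairs.

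The length covered was then divided between regions common to all lists and the rest. Merging overlapping peaks of the 6 lists gave 116681 regions, and all 6 lists held 37638 of them, together 349 Mb. In these shared regions Control lists covered 240, 265 and 263 Mb and CDK19KD lists 247, 239 and 241 Mb. In all other regions Control lists covered 22.5, 47.5 and 52.9 Mb and CDK19KD lists 24.7, 22.8 and 27.0 Mb. The log2 ratio of the means was −0.080 in shared regions and −0.72 in the others (exact permutation p = 0.3 and 0.4). Control replicates 2 and 3 alone held 15416 and 18134 regions that no other of the 6 lists held, while each of the other 4 lists alone held between 2374 and 4200.

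**Figure D1:**
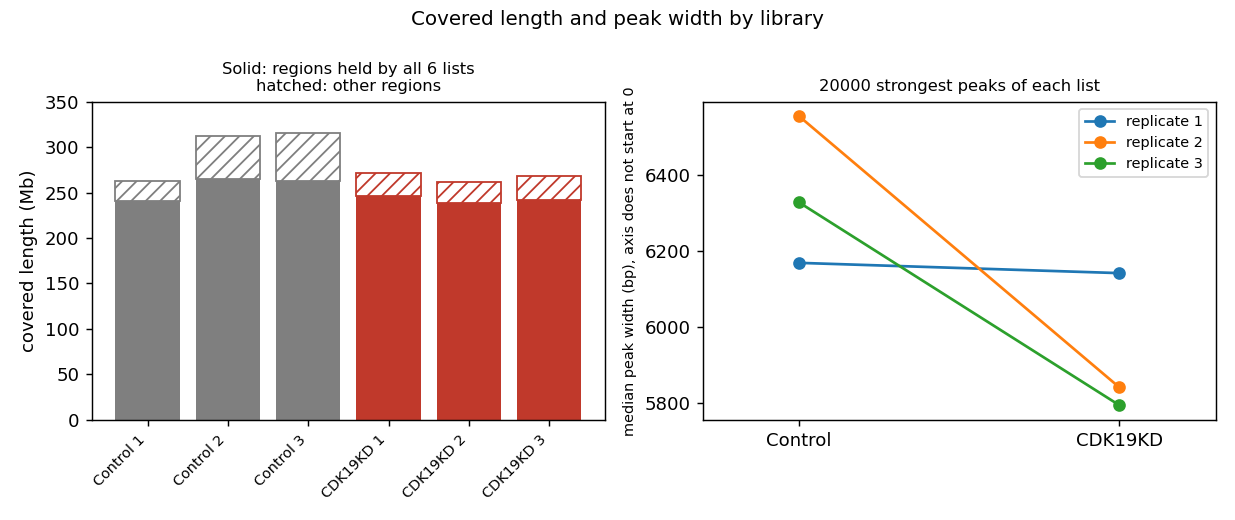
Left, covered length in Mb of each library, split into regions held by all 6 lists (solid) and other regions (hatched). Right, median width in bp of the 20000 strongest peaks of each list, with lines joining libraries of the same replicate number. The hatched part is large in Control replicates 2 and 3, and every CDK19KD point on the right lies below every Control point.

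The number of very wide peaks varied as much within groups as between them. Peaks of at least 20000 bp numbered 819, 1111 and 1632 in Control and 939, 754 and 974 in CDK19KD (exact permutation p = 0.3). Peaks of at least 50000 bp numbered 41, 53 and 137 in Control and 42, 30 and 60 in CDK19KD. The widest peak measured 148698, 118769 and 234263 bp in Control and 112009, 113124 and 125540 bp in CDK19KD. In these measures the groups overlapped, and Control replicate 3 was the highest of the 6. The median width over all peaks went the other way, with 2769, 2040 and 1969 bp in Control and 2847, 2198 and 2475 bp in CDK19KD, wider in CDK19KD in each replicate number (exact permutation p = 0.5, paired exact p = 0.25, the smallest possible). When only the 20000 strongest peaks per list were kept, the medians were 6168, 6554 and 6327 bp in Control and 6141, 5840 and 5793 bp in CDK19KD. The groups did not overlap there. The log2 ratio was −0.10 (exact permutation p = 0.1, which is the floor for 3 against 3, adjusted 0.583).

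Within the 37638 shared regions, the difference in breadth depended on how broad the region was and on the replicate. Regions were put in 4 classes of equal size by their mean covered length over the 6 lists. In the broadest class (7616 to 217350 bp) the median region covered 11222, 12656 and 12922 bp in Control and 11487, 11466 and 11481 bp in CDK19KD. The median log2 ratio per region there was 0.014, −0.10 and −0.11 in replicates 1, 2 and 3. In the narrowest class (422 to 2796 bp) the median region covered 2084, 2044 and 1642 bp in Control and 2170, 1789 and 1948 bp in CDK19KD. Its median log2 ratios were 0.056, −0.20 and 0.26. Replicate 2 was therefore narrower after knockdown in each class, replicate 1 hardly differed, and replicate 3 was wider in narrow regions and narrower in broad ones. In the broadest class 27.5% of regions covered less in CDK19KD in all 3 replicate numbers and 14.3% covered more. In the narrowest class these shares were 15.8% and 20.8%, and over all shared regions they were 22.8% and 17.1%. Since the classes were formed on the same lists, these shares are a description with no test.

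**Figure D2:**
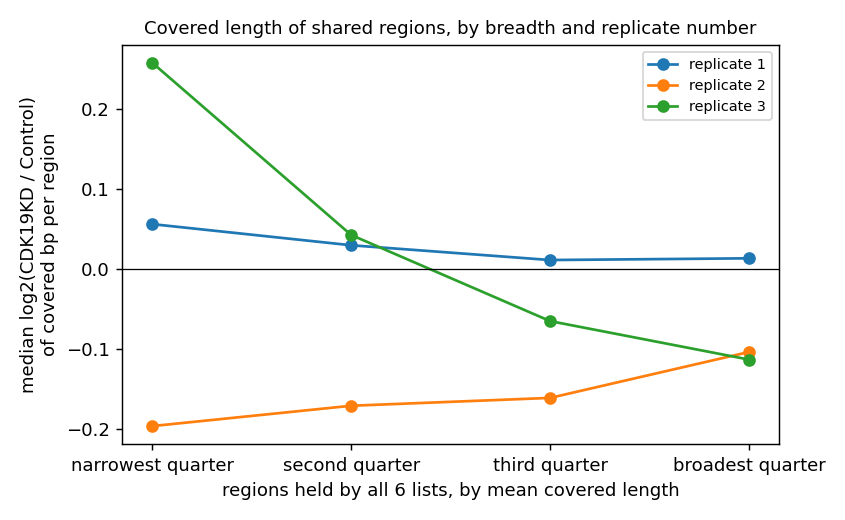
Median log2 ratio of covered bp per region (CDK19KD over Control) on the vertical axis for the 4 breadth classes of the regions held by all 6 lists, 1 line per replicate number. The lines for replicates 2 and 3 meet near −0.1 in the broadest class, while replicate 1 stays between 0.01 and 0.06.

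No shared region passed the test of covered length. With limma over all 37638 regions 0 were called higher and 0 lower at an adjusted p under 0.05, and the lowest adjusted p was 0.394. An unadjusted p under 0.05 was reached by 1444 regions that were broader and 1886 that were narrower in CDK19KD. In 2639 regions (7.01% of those tested) every CDK19KD library lay above every Control library, and in 3085 (8.20%) every one lay below. Adding the replicate number to the model brought the lowest adjusted p to 0.220. The width of the longest peak in a region likewise gave 0 calls in either direction (limma, lowest adjusted p 0.235, unadjusted p under 0.05 in 1420 and 1761). All CDK19KD libraries lay above all Control libraries in 2609 regions (6.93%) and below them in 3093 (8.22%).

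The regions with the smallest unadjusted p are given as values that did not pass. On chromosome 1 from 31984669 to 32003882, Control lists covered 8213, 8761 and 6302 bp in 3 to 5 peaks, and each CDK19KD list covered 19214, 18083 and 17898 bp with 1 peak. The longest peak there was 4619, 4689 and 2942 bp in Control, so that its log2 difference was 2.20 ± 0.22 (SE, limma adjusted p = 0.235). On chromosome 9 from 129945301 to 129964443, covered length was 8957, 8556 and 9516 bp in Control and 16959, 17500 and 18451 bp in CDK19KD. On chromosome 10 from 23683736 to 23705268 it was 10191, 8656 and 7914 bp in Control and 20924, 19297 and 18351 bp in CDK19KD. In all 3 of these regions the Control and CDK19KD libraries did not overlap, and the CDK19KD lists filled most of the region. The bounds of a region are set by the peaks of these same lists, so this filling is largely built in where CDK19KD is broader. CDK8KD lists covered 9675, 8071 and 7970 bp on chromosome 1, near Control. On chromosome 9 they covered 17660, 19092 and 19088 bp, as much as CDK19KD, and on chromosome 10 17312, 12713 and 10043 bp.

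Other regions had the opposite pattern. On chromosome 6 from 106719571 to 106730833, Control lists covered 6942, 7691 and 8065 bp and CDK19KD lists 3180, 2709 and 2449 bp (log2 difference −1.45 ± 0.19, SE, limma adjusted p = 0.394). On chromosome 10 from 72589222 to 72597386 the values were 6579, 6615 and 8165 bp against 2952, 2482 and 2439 bp. On chromosome 3 from 81714416 to 81724658 they were 4315, 8611 and 4407 bp against 1008, 827 and 620 bp. Control and CDK19KD libraries were apart in each of these 3 regions. CDK8KD lists covered 4820, 4358 and 2770 bp on chromosome 6 and 4844, 5970 and 5596 bp on chromosome 10. On chromosome 3 they covered 3173, 2315 and 3972 bp.

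By the longest peak, the smallest p lay on chromosome 7 from 142098210 to 142140013. Its longest peak measured 7644, 7379 and 6968 bp in Control and 27168, 29484 and 39581 bp in CDK19KD (log2 difference 2.11 ± 0.20, SE, limma adjusted p = 0.235). Control lists split this stretch of 41804 bp into 5, 6 and 7 peaks and each CDK19KD list into 2. On chromosome 9 from 84133722 to 84151684 the longest peak was 3743, 3132 and 2662 bp in Control and 9902, 11096 and 11218 bp in CDK19KD. A break of 1 Control peak into several was seen on chromosome 6 from 18394326 to 18408525. There the longest peak was 13957, 13984 and 13963 bp in Control and 4999, 5042 and 3380 bp in CDK19KD, which had 3 peaks in each list. On chromosome 14 from 102646818 to 102655511 it was 7708, 7259 and 8294 bp in Control and 2554, 2696 and 2315 bp in CDK19KD. On chromosome 10 from 114415433 to 114425293 it was 9142, 9861 and 9113 bp in Control and 3054, 3371 and 3646 bp in CDK19KD. Both directions of joining and breaking thus occurred, and none of these regions passed the test. The longest CDK8KD peak was 9098, 11250 and 18348 bp on chromosome 7 and 17702, 5357 and 12098 bp on chromosome 9. It was 3032, 4581 and 3254 bp on chromosome 14 and 2824, 7513 and 3121 bp on chromosome 10. In all of these every CDK8KD value lay on the CDK19KD side of the Control values. On chromosome 6 it was 14653, 4603 and 6908 bp.

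Such clean breaks were rare among shared regions. In 139 regions (0.369%) each Control list had 1 peak and each CDK19KD list more than 1, and in 108 (0.287%) the reverse held. By contrast 21683 shared regions (57.6%) had 1 peak in all 6 lists. The mean number of peaks per shared region was 1.27, 1.34 and 1.27 in Control and 1.26, 1.43 and 1.31 in CDK19KD (exact permutation p = 0.7). The widest region broken after knockdown, named after its values were seen, lay on chromosome 10 from 121408819 to 121450374. Control lists covered it with 1 peak of 41096, 40193 and 40836 bp, and CDK19KD lists with 2, 3 and 2 peaks, the longest 22545, 16421 and 34327 bp. Its covered length nevertheless stayed at 37972, 37841 and 38670 bp in CDK19KD. The widest region joined after knockdown lay on chromosome 9 from 107870300 to 107902746, with 2, 3 and 2 peaks in Control and 1 peak of 30750, 31178 and 31603 bp in CDK19KD.

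Windows of 10 kb, which do not depend on how peaks are joined into regions, gave the only calls. The share of each window covered by peaks was compared in 78056 windows with limma on all 9 libraries. In 43 windows (0.0551%) it was higher in CDK19KD than in Control and in 18 (0.0231%) lower, at an adjusted p under 0.05, where 3419 and 4323 had an unadjusted p under 0.05. All CDK19KD libraries lay above all Control libraries in 5091 windows (6.52%) and below them in 5650 (7.24%). These calls rest on the model: 1 higher and 1 lower window were called with the replicate number in it, and 0 and 0 with only the 6 libraries. Scaling the shares by each library's total left 1 higher, on chromosome 2 from 72800001 to 72810000, and 0 lower. Leaving out Control replicate 1 gave 217 and 988, and leaving out Control replicate 2 gave 24 and 9. Leaving out CDK19KD replicates 1, 2 or 3 gave 8, 14 or 14 higher and 18, 16 or 20 lower. In 31 of the 61 windows 1 group stood wholly at 0% or 100%, the ends of the scale, where 3 libraries show no spread.

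Of the 43 higher windows, 27 touched a region held by all 6 lists and 16 did not. Of the 18 lower windows, 16 touched such a region. The share of all tested windows that touch such a region was not computed, so these counts are no result about location. In 13 higher windows no Control library had a peak, and in 9 lower windows all Control libraries covered the whole window. Those 13 reached the mean share of 5% needed for testing only through knockdown libraries. That Control was empty there is therefore no separate support. Chromosome 2 had 9 of the higher windows, chromosomes 1 and 10 had 5 each and chromosome 7 had 4. Chromosome 1 had 4 of the lower windows. Chromosomes 12, 13 and 19 had 0 of either. These counts were not set against the number of windows tested on each chromosome. Chromosomes 1 and 2 also held the most regions common to all 6 lists, 3754 and 3131.

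**Figure D3:**
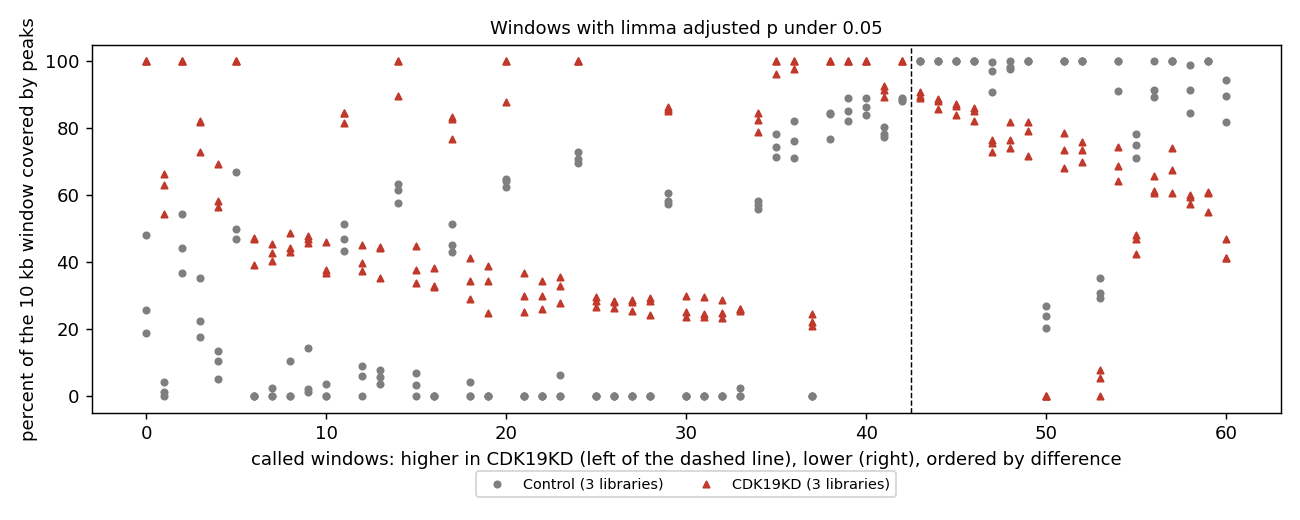
Percent of the window covered by peaks in each Control (grey circles) and CDK19KD (red triangles) library for the 61 called windows, 43 higher to the left of the dashed line and 18 lower to the right, ordered by difference. Many higher windows have Control at 0% or CDK19KD at 100%, and most lower windows fall from near 100% in Control.

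The window that differed most lay on chromosome 10 from 11930001 to 11940000. It was covered to 48.2%, 25.7% and 18.7% in Control and to 100% in each CDK19KD library (69.1 ± 7.65 percentage points, SE, limma adjusted p = 0.0389, and 0.118 with the replicate number). The peak that filled it in CDK19KD was 31838, 31479 and 38924 bp wide, while the widest Control peak reaching it was 17160, 17781 and 24702 bp. CDK8KD libraries lay between, at 80.0%, 73.2% and 88.8%.

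On chromosome 2 from 72800001 to 72810000, Control covered 4.07%, 1.13% and 0% and CDK19KD 63.0%, 54.5% and 66.3% (59.5 ± 3.59 points, limma adjusted p = 0.00527). CDK8KD libraries had 0% in all 3, so the window reached the mean share needed for testing only through CDK19KD. Control and CDK19KD were far apart there, and its limma adjusted p was 0.0693 with the replicate number and 0.014 with scaled shares. With only the 6 libraries its limma adjusted p was 0.162. It was 0.882 with a −log10 q of at least 5 (43.1 points) and 0.774 with the 20000 strongest peaks (22.1 points). On chromosome 7 from 142120001 to 142130000, inside the stretch described above, the shares were 44.1%, 54.4% and 36.9% in Control and 100% in each CDK19KD library (adjusted p = 0.0274, 0.107 with the replicate number). On chromosome 5 from 115260001 to 115270000 they were 22.3%, 35.3% and 17.6% in Control and 72.8%, 82.3% and 81.9% in CDK19KD, beside 23.4%, 22.4% and 19.4% in CDK8KD (adjusted p = 0.0389, 0.108 with the replicate number). On chromosome 1 from 70830001 to 70840000 they were 13.5%, 4.96% and 10.5% in Control and 58.2%, 69.4% and 56.5% in CDK19KD (adjusted p = 0.0273, 0.108 with the replicate number). In each of these 4 windows the widest peak of every CDK19KD library was wider than any Control peak touching the window.

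Among lower windows the drop was deepest on chromosome 2 from 240240001 to 240250000, with 94.6%, 81.9% and 89.5% in Control and 41.1%, 46.9% and 41.2% in CDK19KD. The difference was −45.6 ± 4.52 points (SE, limma adjusted p = 0.0301, 0.107 with the replicate number). Its widest peak measured 10231, 7551 and 7923 bp in Control and 3636, 2694 and 2604 bp in CDK19KD. On chromosome 20 from 42600001 to 42610000 the shares were 84.7%, 99.0% and 91.3% in Control and 57.2%, 60.1% and 59.5% in CDK19KD (adjusted p = 0.0394, 0.0999 with the replicate number). On chromosome 3 from 130640001 to 130650000 they were 100% in each Control library and 74.2%, 67.5% and 60.6% in CDK19KD (adjusted p = 0.0301, 0.108 with the replicate number). On chromosome 16 from 70800001 to 70810000 they were 91.5%, 100% and 89.4% in Control and 61.3%, 60.5% and 65.8% in CDK19KD (adjusted p = 0.0389, 0.113 with the replicate number). CDK8KD libraries stayed at 79.2% or more in these 3 windows.

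The windows called both with and without the replicate number were 1 in each direction, and neither was called with scaled shares. In each of them 1 of the groups compared stood wholly at 100%, the end of the scale. Libraries show no spread there, which lowers the SE. The lower one lay on chromosome 21 from 27510001 to 27520000, covered to 100% in each Control library and to 54.9%, 60.5% and 60.9% in CDK19KD (−41.2 ± 1.86 points, SE, limma adjusted p = 0.00231, and 0.0356 with the replicate number). A Control peak of 15685, 15127 or 23003 bp spanned it, while CDK19KD lists had 2, 3 and 2 peaks there, the widest 6015, 6352 and 7961 bp. CDK8KD libraries also covered it to 100%, so of the 9 libraries only those of CDK19KD varied in this window. Its limma adjusted p was 0.129 with scaled shares and 0.135 with only the 6 libraries, and with peaks of a −log10 q of at least 5 it was 0.977.

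The higher one lay on chromosome 2 from 28870001 to 28880000, named after its values were seen, with 72.8%, 70.7% and 69.5% in Control and 100% in each CDK19KD library. The difference was 29.0 ± 1.43 points (SE, limma adjusted p = 0.00231, and 0.0356 with the replicate number). A gap between Control peaks was bridged by a CDK19KD peak of 27537, 33701 and 35251 bp, beside at most 13635 bp in Control. Its limma adjusted p was 0.0936 with scaled shares and 0.135 with only the 6 libraries, and the difference was −2.13 points among peaks with −log10 q of 5 or more. CDK8KD libraries lay between the groups, at 89.8%, 88.7% and 88.4%.

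**Figure D4:**
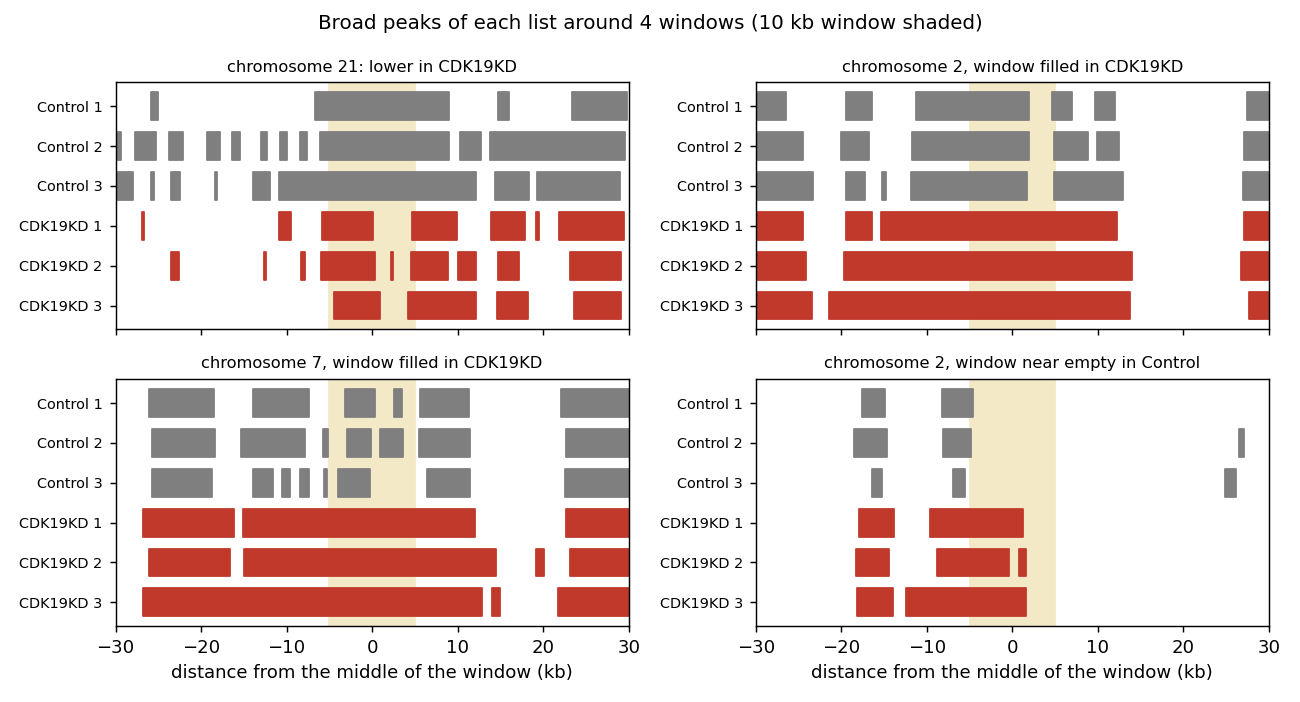
Broad peaks of each Control (grey) and CDK19KD (red) list around 4 windows, by distance in kb from the middle of the window, with the 10 kb window shaded. The window on chromosome 21 is spanned by 1 peak in each Control list and broken in each CDK19KD list, and the windows on chromosomes 2 (upper right) and 7 are filled by 1 peak in each CDK19KD list. At lower right, knockdown peaks reach into a window that Control peaks barely touch.

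A pair of touching windows on chromosome 1 moved in opposite directions and was noticed after the values were seen. From 26220001 to 26230000 the share was 100% in each Control library and 73.6%, 78.7% and 68.3% in CDK19KD. From 26230001 to 26240000 it was 64.2%, 64.7% and 62.4% in Control and 100%, 87.8% and 100% in CDK19KD. Over this stretch acetylated cover was thus lower on 1 side and higher on the other after knockdown, while CDK8KD libraries matched neither change, with 100% in the left window and 61.6%, 65.1% and 62.5% in the right. With a term for the replicate number neither window passed (limma adjusted p = 0.107 and 0.125). With the 20000 strongest peaks the right window's difference was −5.43 points.

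Regions held by a whole group and absent from the other were few and weak. All 3 CDK19KD lists and no Control list held 748 regions, 10.0% of the 7455 regions held by 3 of the 6 lists, and all 3 Control lists and no CDK19KD list held 537, or 7.20%. They covered 1.77 and 1.39 Mb. Leaving out 1 library loosens the rule, since fewer lists must hold or lack a region, so a rise in both counts was built in. They rose to as many as 4284 Control-only regions (and 1458 CDK19KD-only) without Control replicate 1. The most CDK19KD-only regions, 1654 beside 864 Control-only, came without CDK19KD replicate 2. With a −log10 q of at least 5 they were 95 and 36. The median width was 2227 bp for CDK19KD-only and 2315 bp for Control-only regions, near the 2190 bp of all regions held by 3 lists. For shared regions it was 6498 bp. The peaks of CDK19KD-only regions stood at a median percentile of 26.1, 32.2 and 35.4 when peaks of each list were ranked on −log10 p, and those of Control-only regions at 16.4, 34.4 and 31.7. In between, 1518 regions were held by all CDK19KD lists and 1 Control list, and 1000 by all Control lists and 1 CDK19KD list.

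CDK19KD-only regions lay further from the common map than Control-only regions did. The median distance to the nearest region held by all 6 lists was 13154 bp for CDK19KD-only, 9252 bp for Control-only and 10115 bp for all regions held by 3 lists. More than 100 kb away lay 6.02% of CDK19KD-only regions, 1.86% of Control-only regions and 6.32% of all held by 3. No CDK8KD list held 302 of the CDK19KD-only regions (40.4%), and all 3 held 116 (15.5%). For Control-only regions these numbers were 119 (22.2%) and 137 (25.5%), and for all regions held by 3 lists 2155 (28.9%) and 1205 (16.2%). The distances and shares are a description with no test.

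Along the genome, the share of regions held by 3 lists that were CDK19KD-only was highest on chromosome 16 (30 of 167, 18.0%), X (30 of 187, 16.0%), 22 (12 of 77, 15.6%) and 19 (23 of 152, 15.1%). It was lowest on chromosome 10 (26 of 363, 7.16%), where Control-only regions made up 10.5%. Control-only regions were scarcest on chromosome 19 (5 of 152, 3.29%). The densest 1 Mb lay on chromosome 7 from 46000001 to 47000000, with 5 CDK19KD-only regions beside 32 other regions held by all 6 lists.

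**Figure D5:**
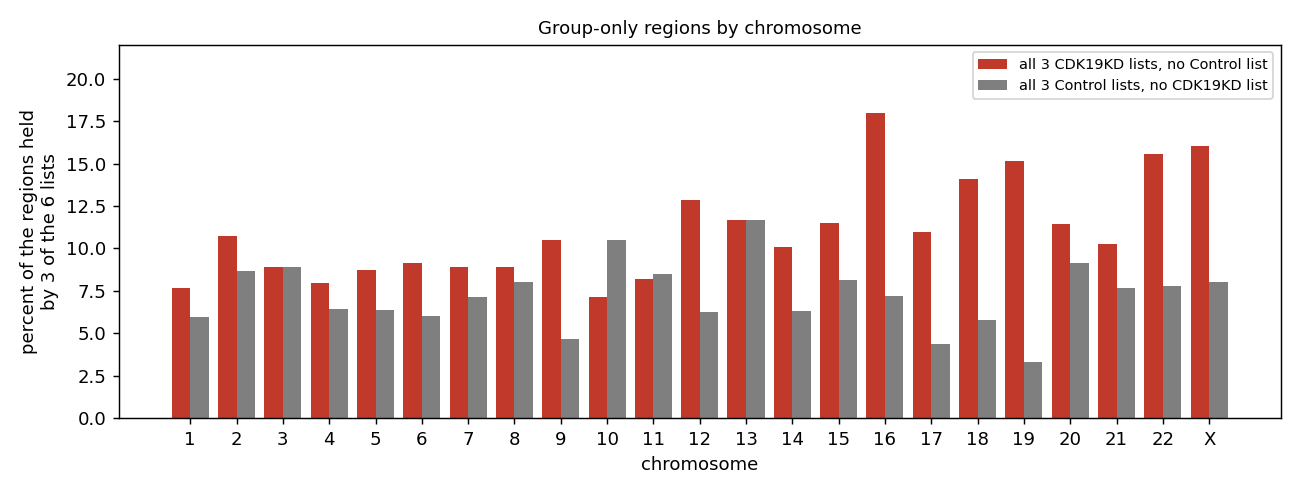
Percent of the regions held by 3 of the 6 lists that were held by all CDK19KD lists and no Control list (red) or by all Control lists and no CDK19KD list (grey), by chromosome. Red bars reach 18.0% on chromosome 16, and on chromosome 10 the grey bar is the higher.

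The CDK19KD-only regions with the highest mean percentile included 1 on chromosome 7 from 123048640 to 123053028, with peaks of 4389, 1402 and 2294 bp and −log10 p of 7.19, 5.03 and 9.43 in the 3 CDK19KD lists. It lay 44652 bp from the nearest shared region, and 2 of 3 CDK8KD lists held it. A region on chromosome 2 from 146712894 to 146719124 had peaks of 4699, 4730 and 3905 bp (−log10 p 7.09, 4.72 and 10.5), and all 3 CDK8KD lists held it. On chromosome 11 from 111829286 to 111834320 the peaks were 3685, 3838 and 3964 bp wide (−log10 p 9.18, 3.40 and 13.0), and 1 CDK8KD list held 250 bp of it. On chromosome 16 from 67245322 to 67249020 they were 2320, 2062 and 3699 bp (−log10 p 5.86, 5.11 and 8.73). The first of the 5 by rank lay on chromosome 2 from 9920141, with peaks of 3493, 4434 and 4390 bp. Fold enrichment over background, as deposited, was 2.67 to 4.66 in these 5 regions.

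The widest CDK19KD-only region lay on chromosome 7 from 36073083 to 36080880, with peaks of 3949, 5389 and 7798 bp, and was held by all 3 CDK8KD lists. The next lay on chromosome 1 from 31852487 to 31859129 (3859, 852 and 6643 bp) and from 46636205 to 46642447 (755, 2782 and 6243 bp covered). In all 3 the CDK19KD replicate 3 peak set the width of the region.

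Among Control-only regions, 1 on chromosome 3 from 149419786 to 149422210 had peaks of 1477, 1845 and 1595 bp and −log10 p of 5.53, 3.47 and 5.09. All 3 CDK8KD lists held it, as they did the region on chromosome 1 from 1891696 to 1892503, whose Control peaks were 515, 477 and 604 bp. On chromosome 6 from 18115171 to 18116441 the Control peaks were 486, 1271 and 324 bp, and on chromosome 7 from 48337226 to 48339287 they were 2010, 1444 and 1999 bp. The strongest by rank, on chromosome 3 from 141882919, had 3252, 2835 and 1794 bp. The widest lay on chromosome 4 from 110447308 to 110456752 (979, 6802 and 8364 bp covered), chromosome 6 from 10573373 to 10582006 (958, 972 and 8584 bp) and chromosome 9 from 37140883 to 37148305 (1123, 7423 and 364 bp). In the widest regions 1 or 2 libraries supplied most of the cover.

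At the scale of 100 kb no locus passed. Of 13174 bins 0 were called higher and 0 lower (limma, lowest adjusted p 0.160, unadjusted p under 0.05 in 402 and 1040), and in 798 (6.06%) and 1233 (9.36%) all CDK19KD libraries lay above or below all Control libraries. Without Control replicate 1, 33 were called higher and 780 lower. The locus with the smallest p lay on chromosome 2 from 237400001 to 237500000, with 1.15%, 2.05% and 0% covered in Control and 11.4%, 12.1% and 10.6% in CDK19KD (10.3 ± 1.22 points, SE, limma adjusted p = 0.160). It held no region common to all 6 lists, and CDK19KD lists had 5 peaks each there against 1, 3 and 0 in Control. CDK8KD libraries lay between, at 5.58%, 5.80% and 9.06%.

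On chromosome 7 from 36000001 to 36100000, which holds the widest CDK19KD-only region, Control covered 4.22%, 5.82% and 4.07% and CDK19KD 19.1%, 17.5% and 18.2%. CDK8KD covered 10.4%, 11.3% and 16.9% there, between the other groups. On chromosome 6 from 10300001 to 10400000 the shares were 11.9%, 14.3% and 7.72% in Control and 26.0%, 24.3% and 27.0% in CDK19KD, beside 12.6%, 10.3% and 10.0% in CDK8KD. Lower values, which also did not pass, were found on chromosome 3 from 133900001 to 134000000, with 20.7%, 22.5% and 20.7% in Control and 10.7%, 11.8% and 8.84% in CDK19KD (adjusted p = 0.382). On chromosome 6 from 73900001 to 74000000 they were 10.0%, 12.6% and 15.3% against 3.05%, 4.48% and 2.22%. On chromosome 6 from 148700001 to 148800000 they were 32.5%, 25.1% and 27.3% against 15.8%, 13.9% and 15.5%. Control and CDK19KD libraries stayed apart at all 6 loci. CDK8KD covered 17.0%, 18.2% and 16.4% of the chromosome 3 locus. On chromosome 6 it covered 9.57%, 9.65% and 7.20% from 73900001 and 27.6%, 28.7% and 27.7% from 148700001.

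Whole chromosomes differed little once each library was centred on its mean. None (0) of the 23 passed the test (limma, lowest adjusted p 0.931), and 0 had an unadjusted p under 0.05. Relative to the rest of its library, chromosome 22 had a log2 ratio of 0.14 ± 0.12 (SE), with 0.025, 0.26 and 0.15 in replicates 1, 2 and 3. Chromosome 19 had 0.14 ± 0.15, with 0.0019, 0.33 and 0.082. These were the highest 2, positive in each replicate number. In the fit that includes the replicate number both had a limma adjusted p of 0.160. The lowest was chromosome 4 at −0.058 ± 0.098, where Control covered 15.0, 19.6 and 15.8 Mb and CDK19KD 15.6, 14.5 and 13.8 Mb.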

How the data were processed

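Each of the 9 ChIP libraries has its own list of broad peaks, deposited by the authors, with no pooled list among them. MACS2, deepTools and the build hg19 are named in the submitters' processing notes. Versions, settings, control library, aligner and depth are not given in the sources used here. Per peak the authors deposited a fold enrichment (a ratio), a −log10 p, a −log10 q and a score, which was not used.

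Peaks on chromosomes 1 to 22 and X were read. Peaks overlapping by at least 1 bp were merged into regions, and a list held a region if a peak lay in it. Covered bp and longest peak per shared region (log2, 6 libraries) and covered share of windows of 10 kb and bins of 100 kb (9 libraries, mean share at least 5%) were tested with limma 3.58.1 in R 4.3.3 with a trend, and chromosomes without one, with Benjamini-Hochberg adjustment over all features. Library measures had exact two-sided permutation tests over 10 splits (smallest p 0.1) and sign flips within replicate numbers (smallest p 0.25). The fits were tested on simulated data.

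Named items are, per measure and direction, the 5 called with the largest difference and no overlap of groups, or else the 3 with the smallest p. Of group-only regions they are the 5 with the highest mean percentile and the 3 widest. Members and lists were chosen with earlier results of these data known.

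Deviations from group means correlated at 0.390, 0.224 and 0.375 between same-numbered libraries of both groups (shared regions), each above 0.1. Between differently numbered libraries the correlations ran from −0.411 to 0.107. These are no separate evidence, since deviations cancel out within a group and positive same-number values force negative ones among the others. The replicate numbers come from the titles and were used to pair libraries in the log2 ratios by replicate number and the sign flips. The main limma fits did not include the replicate number, and the fits with it are given beside them. The planned look at gene promoters, gene lists and marker genes was not run, because an annotation of hg19 was not used here, and input libraries were not analysed here.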

Additional observations from a re-analysis of the deposited data

How the results depend on the processing

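Over 15 main results 167 alternative values were computed, of which 123 stayed the same, 40 moved and 4 changed sign. A library measure counted as the same if its log2 ratio kept its sign. A count did so if it stayed within 1.5 times, and a count of 0 only if it stayed 0. No library measure could pass 0.05. Restricting lists to peaks with −log10 q of 5 or more, log2 ratios changed sign for peak number (0.18), covered length (0.0049) and median width (−0.16), and with the 20000 strongest peaks that of median width was −0.10.

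For shared regions and chromosomes each alternative run gave 0 calls, the replicate block included. Windows called higher and lower (43 and 18) became 66 higher with a −log10 q of at least 5, 197 and 192 with the 20000 strongest peaks, 1 and 1 with the replicate block, 1 and 0 with scaled shares, 0 and 0 with only the 6 libraries, 69 higher with no minimum share, and 140 and 74 in windows of 5 kb. Leaving out 1 library gave 8 to 217 higher and 9 to 988 lower. Bins of 100 kb (0 and 0) gave 1 higher with a −log10 q of at least 5, 5 and 6 with the 20000 strongest peaks, 2 higher with scaled shares, and from 0 to 33 higher and 0 to 780 lower without 1 library.

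CDK19KD-only and Control-only regions fell from 748 and 537 to 95 and 36 with a −log10 q of at least 5 and to 234 and 271 with the 20000 strongest peaks. Without 1 library, where the rule is looser and a rise is built in, they ranged from 1079 to 1654 and from 828 to 4284. For named items 457 alternative values were computed, of which 311 stayed the same and 8 were newly called. In 92 a called item was no longer called, and in 44 a named group-only region was lost. With only the 6 libraries 0 of 13 named windows were called, and with a −log10 q of at least 5 it was 2 of 12. Of 16 named group-only regions 0 remained in those stricter lists or among the 20000 strongest peaks. Of the named items 2 changed sign, the chromosome 2 window from 28870001 (−2.13 points with a −log10 q of at least 5) and the chromosome 1 window from 26230001 (−5.43 points with the 20000 strongest peaks). The centred fit with the replicate block was added after seeing the data. The promoter alternatives were not run. Fewer peaks enter the stricter lists, and the cause of other changes was not tested. Since depth is unknown, a peak missing from a list may be a call just under the caller's threshold.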
